A study of Mus musculus with 8 samples.

Results

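The 5 galectin-family genes Lgals3, Lgals1, Lgals9, Lgals8 and Lgals3bp were followed through the bone marrow basophil lineage of mice with and without the transcription factor Nfil3. They were chosen by name, because Lgals3 had stood out between genotypes in pre-Baso cells of these same libraries. The 5 genes are 5 of the 55487 genes in the files and hold 27 of the 142699 annotated transcripts. Levels are in TPM, a transcript abundance that is scaled by transcript length and by all RNA of the library, and a gene's TPM is the sum over its transcripts.

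The cells were sorted from bone marrow of C57BL/6J mice as lineage-negative, CD34-negative, ckit-negative and CD200R3-positive, with high MAR1 staining for pre-Baso and intermediate MAR1 staining for basophils (MAR1 is an antibody to the IgE receptor alpha chain). Control mice were littermates labelled wild type, and deficient mice were labelled Nfil3-depleted, with titles that call the gene floxed out. Each of the 4 groups held 2 libraries, called biological duplicates. Age, the floxed alleles and the Cre driver are not given in the sources used here. Pre-Baso and basophils are 2 sorted populations, so "maturation" below means the difference between them, not cells followed in time.

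Galectins are small lectins, made without a signal peptide, that bind beta-galactoside sugars on glycoproteins. Outside the cell they cross-link receptors and matrix. Inside it they take part in splicing, signalling and the marking of damaged endosomes and lysosomes, whose lumenal sugars they recognise. Lgals3 encodes galectin-3, the Mac-2 antigen of macrophages, which is also made by mast cells and basophils.

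Nfil3 stood at a mean of 7.13 TPM in control pre-Baso and 0.312 in deficient pre-Baso, and at 21.5 TPM in control and 1.09 in deficient basophils. A second gene also separated the genotypes: Mcpt8, a basophil granule protease, was at 7066 TPM in control and 5.06 in deficient pre-Baso, and at 1185 TPM in control and 2.36 in deficient basophils. The consequences of losing Nfil3 and of whatever removed Mcpt8 transcripts cannot be told apart in this design. All 15 basophil markers were detected, while the mast cell list summed to at most 3.14 TPM per library. Macrophage transcripts were high in the first library of both basophil groups, with summed TPM of 882.6 in control and 798.7 in deficient basophils against 324.5 and 367.2 in the second libraries. Eosinophil transcripts summed to 2665 TPM in the first control basophil library and to 15.77 to 193.6 TPM elsewhere. Protein-coding genes took 18.67% to 22.36% of the TPM and the libraries held 271.7 to 398.0 assigned megabases, with no read counts.

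Lgals3 lies on chromosome 14 at 47367751 to 47386160 on the plus strand (GRCm38). Nearly all of its TPM came from a 1298-base and a 1419-base transcript, each with 6 exons, whose 792 coding bases were the same. Exons 4 and 5 are coding throughout and belong to the part of the protein that binds sugar. They are printed here because reads across them, unlike those across the alternative first exons, count for both transcripts. The reference transcript sequences (GENCODE M21, GRCm38) at chr14:47381596-47381684 and chr14:47384602-47384767 read as follows.
Lgals3 exon 4: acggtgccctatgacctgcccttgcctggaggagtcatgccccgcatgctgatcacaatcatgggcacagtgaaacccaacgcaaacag
Lgals3 exon 5: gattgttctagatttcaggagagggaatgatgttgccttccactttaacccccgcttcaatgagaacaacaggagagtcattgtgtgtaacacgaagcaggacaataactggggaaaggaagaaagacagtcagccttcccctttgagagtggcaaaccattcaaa

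Read coverage of exon 4, per gigabase assigned to protein-coding genes, was 405.9 and 409.0 in control pre-Baso and 1062 and 963.2 in deficient pre-Baso. Over exon 5 the control libraries of that population had 393.2 and 379.0, and the deficient libraries had 786.9 and 712.5. In basophils, exon 4 stood at 1294 and 1312 in control and at 2279 and 1914 in deficient libraries. The groups did not overlap over either exon. These reads are part of those that make up the gene's TPM in the same libraries. The exon values therefore give no separate support for the ordering of the whole gene.

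In control pre-Baso, Lgals3 was at 83.3 and 96.5 TPM, and in deficient pre-Baso at 209 and 187 TPM. In control basophils it was at 324 and 302 TPM, and in deficient basophils at 429 and 378 TPM. The libraries of the 4 groups did not overlap, and the order was control pre-Baso, deficient pre-Baso, control basophils, deficient basophils. How many of all genes separate in this way was not counted. With 2 libraries per group, a lack of overlap, here and wherever it is given, is a description only.

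In pre-Baso the deficient libraries were 2.19-fold higher, a log2 difference of 1.13 ± 0.14 (SE, n = 2 per group) on log2(TPM + 1). Because Lgals3 was chosen from this contrast, the value is a description with no test. In that contrast 8 of 12511 genes (0.0639%) passed an adjusted p under 0.05. The difference was 1.03 to 1.24 across 19 other settings and left-out libraries. All of these reuse the pre-Baso libraries by which Lgals3 was chosen, so the range is no separate support. In basophils the same comparison gave 1.29-fold, a log2 difference of 0.36 ± 0.14. That difference did not pass the threshold (limma, adjusted p = 0.496), and 0.056% of all genes were called there. From pre-Baso to basophils Lgals3 was 3.46-fold higher in control mice (log2 1.79) and 2.03-fold higher in deficient mice (log2 1.02), given without a test because the same pre-Baso libraries chose the gene. The control pre-Baso libraries enter both the pre-Baso genotype difference and the control maturation difference. Likewise, the deficient pre-Baso libraries enter both that genotype difference and the deficient maturation difference. The sizes of the 2 maturation differences are therefore not free of the choice of the gene.

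**Figure D1:**
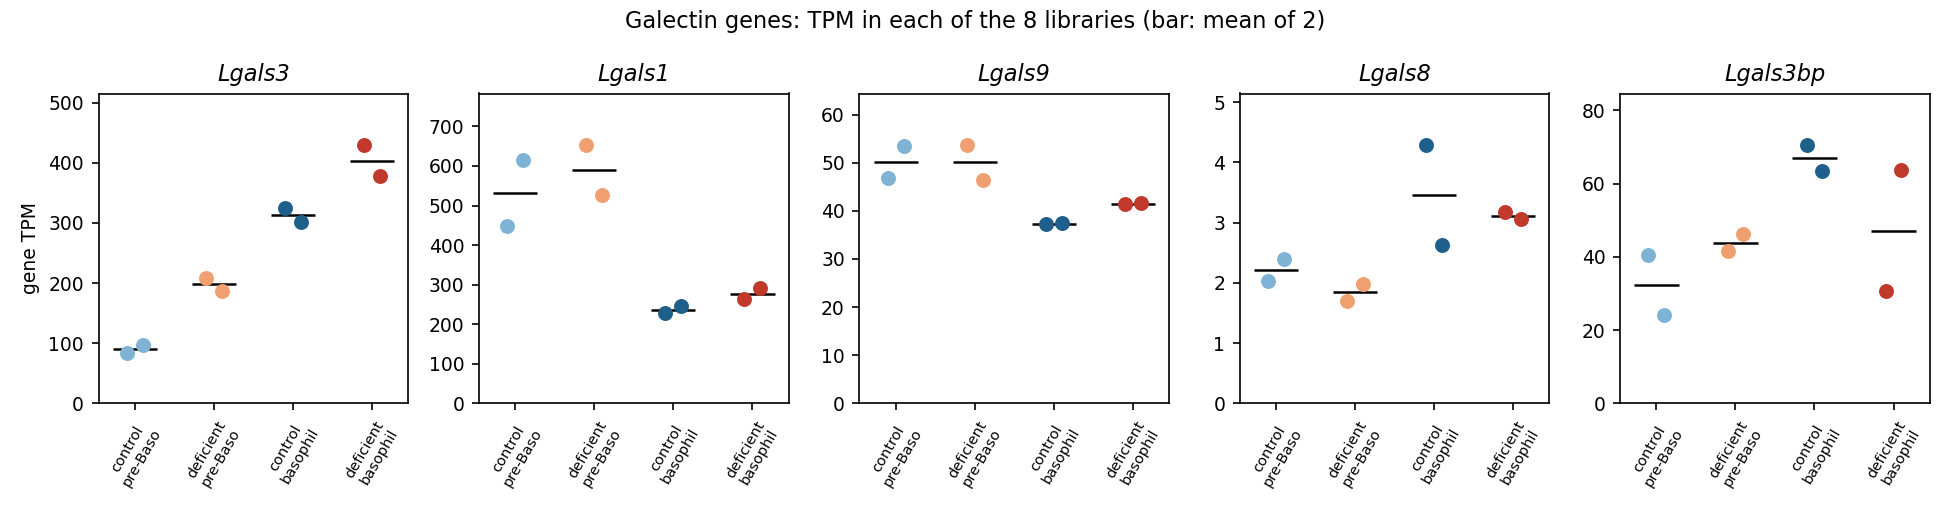
TPM (y axis, linear, from 0) of the 5 galectin genes in each library, by group on the x axis. Points are libraries and bars are means of 2. Lgals3 climbs through 4 non-overlapping groups, from 83.3 TPM in the lowest control pre-Baso library to 429 TPM in the highest deficient basophil library, whereas Lgals1 is lower in all 4 basophil libraries than in any pre-Baso library.

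Markers of other cells moved with some of these groups. The 16 monocyte and macrophage genes, of which 11 reached 1 TPM in at least 2 libraries and 0 were at 0 in all libraries, summed to 154 and 175.5 TPM in control pre-Baso and to 249.2 and 217.0 in deficient pre-Baso. The sums did not overlap between genotypes. Most of the sum was Lyz2, lysozyme, at 128 and 150 TPM where Nfil3 was intact and 215 and 179 where it was removed. Without Lyz2 the list summed to 25.6 and 25.2 TPM in control pre-Baso, against 33.9 and 37.8 in the deficient libraries, also without overlap. Ly6c2, a surface antigen of monocytes, was at 10.9 and 7.69 TPM in control pre-Baso, against 16.9 and 20.9 in the deficient libraries, a log2 difference of 0.96 that did not pass (limma, adjusted p = 1.0). The macrophage complement gene C1qa was at 1.10 and 1.31 TPM in control pre-Baso, against 1.67 and 1.81 in the deficient libraries, without overlap. Of the 11 tested genes of the list, 8 had a higher deficient level, beside 43.3% of all tested genes, and 0 passed. The median log2 was 0.174 beside -0.036 over all genes. The granulocyte progenitor list summed to 1216 and 1282 TPM in control pre-Baso and to 2276 and 1819 in deficient pre-Baso, an order set by 1 gene. Ctsg, the gene for cathepsin G, was at 745 and 841 TPM in control pre-Baso, against 1857 and 1486 in the deficient libraries. Without it the list summed to 471.1 and 441.1 TPM in control and to 418.6 and 333.4 in deficient pre-Baso, and 3 of its 8 tested genes had a higher deficient level (median log2 -0.224, 0 passed). The part of these cells in the pre-Baso difference of Lgals3 was not tested, and in bulk RNA more cells of a type and more RNA per cell cannot be told apart. In basophils, with both first libraries left out, the genotype difference of Lgals3 was 0.32, and the maturation difference was 1.74 in control and 0.93 in deficient mice.

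The 2 main Lgals3 transcripts start 76 bases apart in the first, untranslated exon and also end at different bases. The 1419-base form took 30.5% and 48.5% of Lgals3 TPM in control pre-Baso and 37.6% and 38.6% in deficient pre-Baso. It took 53.0% and 64.1% in control basophils and 39.7% and 38.8% in deficient basophils. The basophil genotypes did not overlap in this share, while the pre-Baso genotypes did. By transcript, the 1298-base form stood at 149 and 106 TPM in control basophils and 251 and 230 in deficient basophils. The 1419-base form stood at 172 and 194 TPM in control and 170 and 147 in deficient basophils, so by these estimates the higher deficient Lgals3 level in basophils lay in the shorter form. These shares are StringTie's estimates from short reads. The coverage that StringTie gave the longer form was 3.65 to 53.4 per gigabase over its first exon in the 8 libraries. Over its last exon it was 70.03 to 447.6. For that last exon, control basophils stood at 383.6 and 447.6 per gigabase and deficient basophils at 423.8 and 319.2, which overlapped. Both exons share bases with the shorter form, so these values come from the same division of reads as the shares and are no separate check. Coverage of the first 76 and last 72 bases, which belong to the longer form alone, was not measured apart. Of the other 4 annotated transcripts, 2 were at 0 everywhere.

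**Figure D2:**
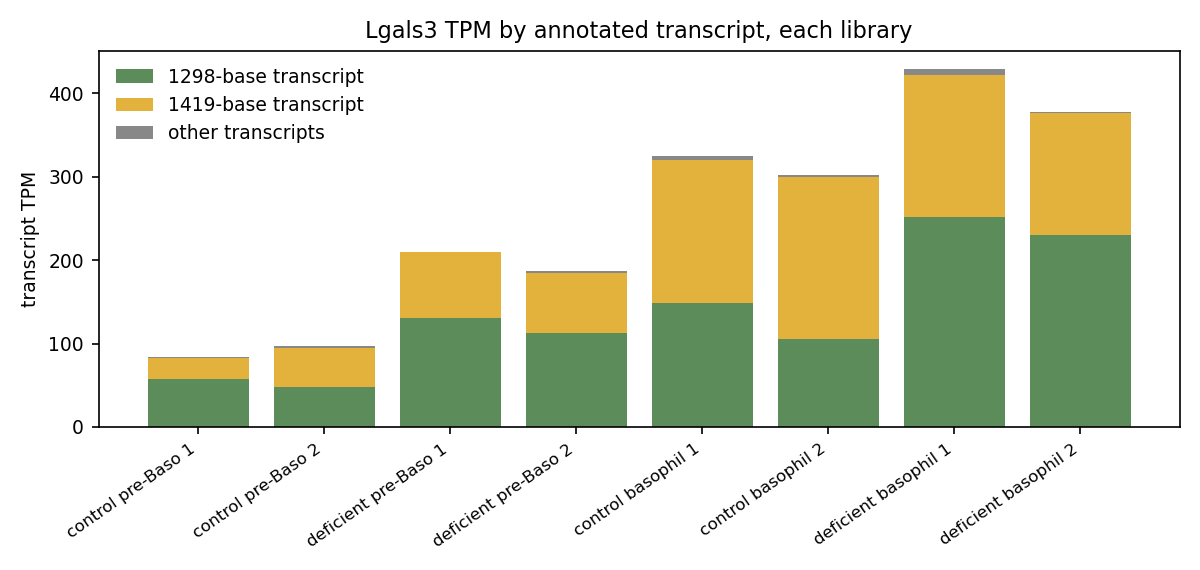
Lgals3 TPM (y axis) in each library (x axis), stacked by annotated transcript. The 1298-base form makes up 251 and 230 TPM in deficient basophils against 149 and 106 TPM in control basophils, and other transcripts add a thin cap.

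The stretch before the start of the 1419-base transcript is shown because Nfil3 is a DNA-binding factor, and its site can be looked for in these letters. It comes from RefSeq (GRCm38.p6), is 203 bases long, lies at chr14:47373610-47373812 on the plus strand and ends at the base before that transcript. A further annotated Lgals3 transcript, listed at 0 in every library, starts upstream of it at the locus start. The matching stretch of Lgals9, whose genotypes overlapped in pre-Baso, is shown for comparison: 228 bases at chr11:78984947-78985174 on the minus strand.
Lgals3: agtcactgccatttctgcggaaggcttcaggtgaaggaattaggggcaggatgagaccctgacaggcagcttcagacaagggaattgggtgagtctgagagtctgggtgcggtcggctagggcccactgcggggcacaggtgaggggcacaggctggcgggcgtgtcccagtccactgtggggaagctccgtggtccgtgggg
Lgals9: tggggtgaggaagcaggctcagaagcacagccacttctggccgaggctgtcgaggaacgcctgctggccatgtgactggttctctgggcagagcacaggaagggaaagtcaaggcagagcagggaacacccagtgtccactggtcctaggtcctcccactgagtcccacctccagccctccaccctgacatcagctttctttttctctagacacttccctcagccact

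In both stretches 3 motifs were searched on both strands: TTACGTAA and TTATGTAA, forms of the site bound by Nfil3 and related leucine zipper factors, and the Sp1-family motif GGGCGG. Both stretches held 0 matches, so all letters are in lower case. Stretches of the Lgals3 length and position before 32851 RefSeq starts held TTACGTAA in 0.0761% and TTATGTAA in 0.676% of cases, and the Sp1-family motif in 25.2%. GC content was 63.1% for Lgals3 and 58.8% for Lgals9. A match, or the lack of one, describes only the letters in these windows.

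The tested genes around Lgals3 did not share its pre-Baso difference. Of 9 protein-coding genes that start within 0.5 Mb, 5 were tested. In pre-Baso 0 of these 5 had a positive genotype difference, beside 43.3% of all tested genes. Their median log2 was -0.228 beside -0.036 over all genes. They were Mapk1ip1l (-0.46), Dlgap5 (-0.10), Socs4 (-0.23), Fbxo34 (-0.21) and Wdhd1 (-0.51). In basophils 0 of the 5 were called, with a median of 0.074. Mcpt8 lies on the same chromosome, 8.7 Mb from Lgals3.

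The 5 genes whose log2(TPM + 1) followed Lgals3 most closely over the 8 libraries, among 4029 protein-coding genes compared, were Trappc2l (Pearson r = 0.975), Defb40 (0.971), Uqcc3 (0.958), Rps14 (0.943) and Paxx (0.942). The libraries form 4 groups in 2 populations, so these coefficients mostly restate group means and carry no test. Defb40, a beta-defensin gene, was listed at 0 in both control pre-Baso libraries and averaged 2.96 TPM in the deficient ones, against 26.2 TPM in control and 26.0 in deficient mature cells. Trappc2l, a subunit of a vesicle tethering complex, averaged 15.5 TPM in control and 21.2 in deficient pre-Baso and 24.6 in control basophils. Both genes were, like Lgals3, higher in basophils than in pre-Baso.

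Lgals1 encodes galectin-1, a dimer with a single sugar-binding domain per chain that binds CD45, CD43 and CD7 on leukocytes. The gene lies on chromosome 15 at 78926725 to 78930465 on the plus strand, and its leading transcript took 98.6% to 99.6% of its TPM. It was at 449 and 615 TPM in control pre-Baso and 653 and 527 TPM in deficient pre-Baso. In control basophils it was at 228 and 246 TPM, and in deficient basophils at 263 and 291 TPM. All 4 basophil libraries lay below all 4 pre-Baso libraries, and the genotypes overlapped in pre-Baso.

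From pre-Baso to basophils Lgals1 fell in control mice, with a log2 difference of -1.15 ± 0.17 (limma, adjusted p = 0.003). In deficient mice it fell by a log2 of 1.08 (limma, adjusted p = 0.0101). The background of such calls was wide: 22.6% of tested genes passed in control and 10.9% in deficient mice. In control mice Lgals1 passed in all 19 alternatives. In deficient mice the adjusted p was 0.0656 without the first deficient basophil library, 0.0853 without the first deficient pre-Baso library and 0.0639 without the filter on low values. The deficient and control basophils did not overlap, but the difference of 0.22 ± 0.17 did not pass the test (limma, adjusted p = 0.792). The genotype effect did not differ detectably between the populations (log2 0.07, limma adjusted p = 0.997).

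The opposite courses of Lgals1 and Lgals3 changed which galectin led. The ratio of Lgals3 to Lgals1 TPM was 0.185 and 0.157 in control pre-Baso and 0.321 and 0.355 in deficient pre-Baso. It was 1.42 and 1.23 in control basophils and 1.63 and 1.30 in deficient basophils. Lgals1 was the most abundant of the 5 in all 4 pre-Baso libraries, and Lgals3 was the most abundant in all 4 basophil libraries. TPM is scaled by length, so levels of different genes can be set side by side. It also depends on how StringTie divides reads between transcripts, as the Lgals3bp values below show. The 5 genes together took 0.316% to 0.468% of protein-coding TPM, and in both populations the deficient libraries had the higher share without overlap. That sum holds Lgals3, the gene chosen for its pre-Baso difference. Lgals3 alone took 0.0446% and 0.0432% in control pre-Baso and 0.102% and 0.0981% in deficient pre-Baso. The order of the sums is therefore no result about the family as a whole.

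Lgals9 encodes galectin-9, a tandem-repeat galectin with a pair of sugar-binding domains that binds TIM-3 and IgE. It lies on chromosome 11 at 78962974 to 78984946 on the minus strand, and a transcript of 1520 bases took 91.4% to 99.1% of its TPM. It was at 46.8 and 53.6 TPM in control pre-Baso and 53.6 and 46.5 in deficient pre-Baso. In control basophils it was at 37.2 and 37.5 TPM and in deficient basophils at 41.3 and 41.6 TPM. The pre-Baso genotypes overlapped, and the basophil libraries all lay below those of pre-Baso. The basophil genotypes did not overlap, with the deficient libraries higher. The control maturation difference of -0.41 ± 0.15 did not pass (limma, adjusted p = 0.0777). It passed with FPKM (0.0234), with protein-coding genes only (0.0322), with median-ratio scaling (0.0191) and with assigned bases (0.00894), all of which are limma adjusted p-values. In deficient mice the difference was -0.26 (limma, adjusted p = 0.284), and between basophil genotypes it was 0.15 (adjusted p = 0.853).

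Lgals8 encodes galectin-8, another tandem-repeat galectin, which recruits autophagy receptors to ruptured endosomes. It lies on chromosome 13 at 12439415 to 12464944 on the minus strand, and 7 of its 10 annotated transcripts were at 0 in every library. It was the least abundant of the 5, at 2.04 and 2.39 TPM in control pre-Baso and 1.70 and 1.98 in deficient pre-Baso. In control basophils it was at 4.29 and 2.62 TPM and in deficient basophils at 3.17 and 3.07 TPM. All basophil libraries lay above all pre-Baso libraries, by a log2 of 0.45 ± 0.21 in control (limma, adjusted p = 0.172) and 0.54 ± 0.21 in deficient mice (limma, adjusted p = 0.146), so neither difference passed. The basophil genotype difference of -0.09 (limma, adjusted p = 0.955) became 0.18 without the first control basophil library, which was the highest.

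Lgals3bp encodes a secreted, heavily glycosylated scavenger-receptor protein that binds galectin-3 and is itself no galectin. It lies on chromosome 11 at 118392751 to 118402092 on the minus strand. Its TPM was 40.4 and 24.1 in control pre-Baso and 41.7 and 46.1 in deficient pre-Baso. In basophils it was 70.5 and 63.5 in control and 30.6 and 63.6 in deficient libraries. The second control pre-Baso and the first deficient basophil library were low against their partners.

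Those 2 libraries also differed in how StringTie divided the gene's reads. In the other 6 libraries a 686-base transcript of 2 exons, annotated as incomplete at its 5′ end, took 69.1% to 76.2% of Lgals3bp TPM, and in these 2 it was listed at 0. There the 2330-base transcript took 100% and 96.9%. A read assigned to a shorter transcript adds more TPM, so gene TPM moved with this split. Counted instead as assigned bases per megabase of protein-coding genes, a measure added after this split was seen, Lgals3bp stood at 157 and 160 in control pre-Baso and 163 and 165 in deficient pre-Baso. It stood at 235 and 222 in control basophils and 226 and 212 in deficient basophils. By that measure the libraries of each group agreed closely, all 4 basophil libraries lay above all 4 pre-Baso libraries, and the basophil genotypes overlapped.

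The result for Lgals3bp therefore depended on the measure. On TPM, the maturation difference was 1.07 ± 0.34 in control (limma, adjusted p = 0.0526) and 0.01 ± 0.34 in deficient mice (limma, adjusted p = 0.99). The control difference on TPM passed with the compared groups alone (limma, adjusted p = 0.0447), without the first deficient basophil library (limma, adjusted p = 0.0179) and without the second (limma, adjusted p = 0.0188), and over all alternatives on TPM or FPKM its adjusted p ran up to 0.253. On assigned bases it was 0.53 ± 0.09 in control (limma, adjusted p = 0.00447) and 0.42 ± 0.09 in deficient mice (limma, adjusted p = 0.0191). Between basophil genotypes the difference was -0.59 on TPM (limma, adjusted p = 0.693). On assigned bases it was -0.06, where the limma adjusted p was 0.87. For the other 4 genes the deficient to control and basophil to pre-Baso differences on assigned bases moved by less than 1 SE or kept their side of the threshold, apart from the Lgals9 call given above.

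**Figure D3:**
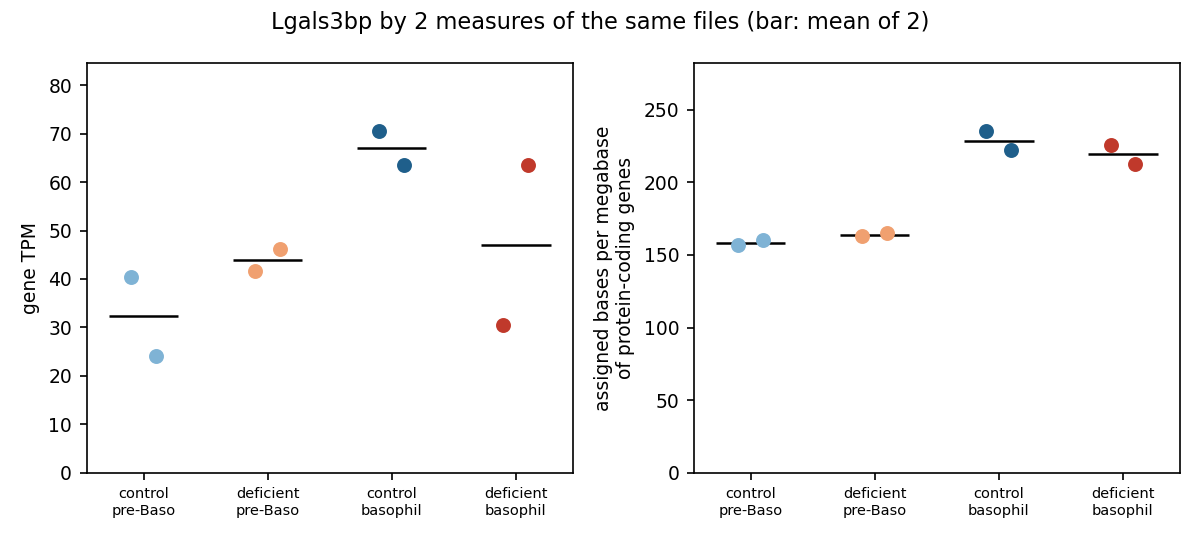
Lgals3bp in each library as gene TPM (left) and as assigned bases per megabase of protein-coding genes (right), both y axes linear from 0, bars showing the mean of 2. The partners at 24.1 and 30.6 TPM in the left panel lie at 160 and 226 in the right panel, next to their replicates.

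**Figure D4:**
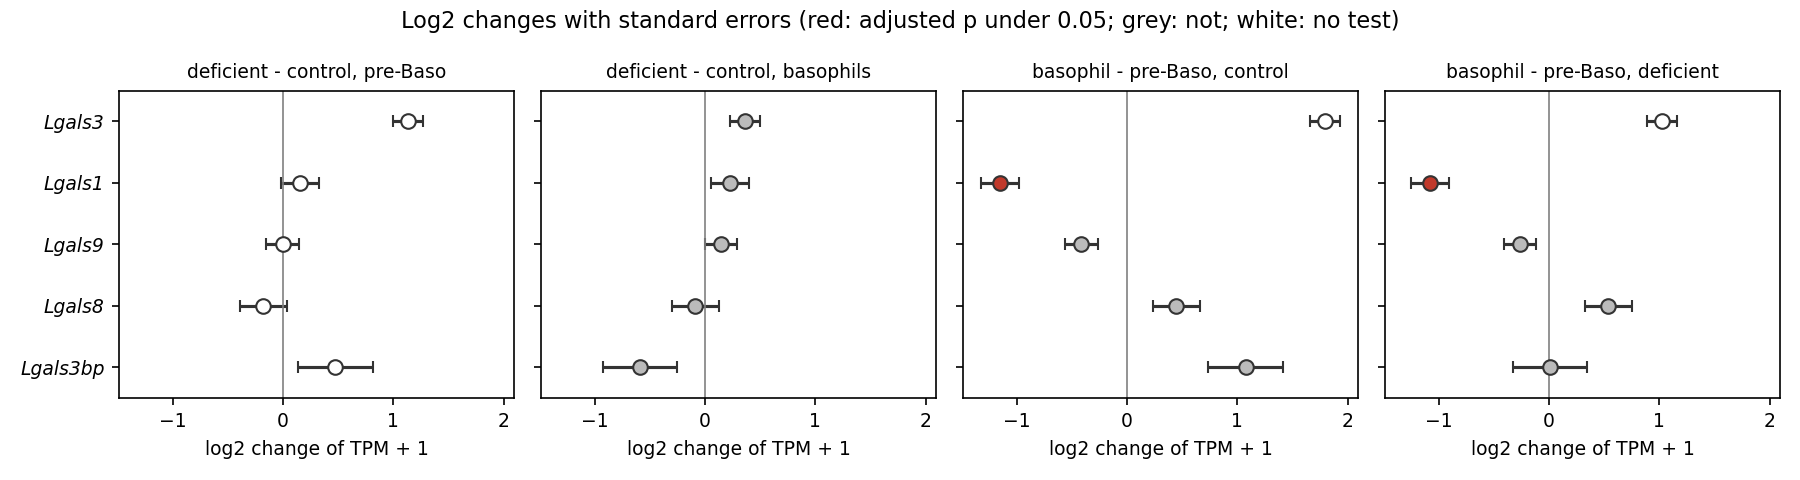
Log2 differences of TPM + 1 (x axis) with standard errors for the 5 genes (y axis) in 4 comparisons. Red points passed the threshold, grey points did not and white points carry no test. Lgals1 passed in both maturation comparisons, at -1.15 and -1.08, and no gene passed between basophil genotypes.

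In all, 1 of the 4 genes with a maturation test in control mice passed on TPM, beside 22.6% of all genes, and 1 of 4 in deficient mice, beside 10.9%, that gene being Lgals1 in both. Of the 5 genes, 0 passed between basophil genotypes, beside 0.056%. At an unadjusted p under 0.05, 1065 of the 12511 genes differed between basophil genotypes. When the genotype effects of pre-Baso and basophils were compared with each other, 0 genes passed (0% of those tested, limma), with 689 at an unadjusted p under 0.05.

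The remaining galectin genes were low or silent. Lgals4, an intestinal tandem-repeat galectin, was at 3.45 and 3.48 TPM in control pre-Baso and at 1.08 and 1.41 in their deficient counterparts. In basophils it was at 6.65 and 6.66 TPM (control) and 3.52 and 4.26 TPM (deficient). It was lower in deficient than in control libraries of both populations without overlap, opposite to Lgals3. That genotype difference did not pass in pre-Baso (log2 -0.99, limma adjusted p = 0.283) or in basophils (-0.65, limma adjusted p = 0.312). With maturation Lgals4 rose in control (0.78, limma adjusted p = 0.0142) and deficient mice (1.12, limma adjusted p = 0.00862). The control call was lost when either library of either compared group was left out (limma adjusted p 0.0584 to 0.0682), and the deficient call without the first deficient pre-Baso library (0.0734). Lgalsl, a galectin-related gene, rose from a mean of 4.74 to 11.6 TPM in control mice (log2 1.14, limma adjusted p = 0.012), a call lost without the first (0.0575) or second (0.0632) control pre-Baso library. Lgals2, Lgals7 and Grifin were listed at 0 in every library, and Lgals12 reached 0.10 TPM in 1 library.

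Galectins act through the glycoproteins that carry their sugars, and 24 of 32 listed ligands and receptors were tested. Between basophil genotypes 0 of the 24 were called, with a median log2 of -0.153 beside -0.013 over all genes. With maturation in control mice 10 rose and 4 fell, beside 12.6% higher and 10% lower of all genes, and the median was 0.518 beside 0.084. In deficient mice 9 rose and 3 fell, beside 6.79% higher and 4.11% lower, with a median of 0.255 beside 0.101.

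Cd7, a galectin-1 receptor, was at 10.3 and 16.1 TPM in control pre-Baso and 245 and 236 in control basophils. In the deficient mice it was at 9.28 and 16.7 TPM in pre-Baso and at 123 and 118 in basophils. It rose in both, by a log2 of 4.13 ± 0.28 in control (limma, adjusted p = 0.000236) and 3.17 ± 0.28 in deficient mice (limma, adjusted p = 0.00212). The basophil genotypes did not overlap, but their difference of -0.99 did not pass (limma, adjusted p = 0.328).

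Among other galectin counter-receptors, Cd44, the hyaluronan receptor, rose from a mean of 4.19 to 13.1 TPM in control mice (log2 1.44, limma adjusted p = 0.00212). Ptprc, which encodes CD45, rose from 8.98 to 22.9 TPM (log2 1.26, limma adjusted p = 0.00249), and Selplg, which encodes the selectin ligand PSGL-1, from 98.4 to 206 TPM (log2 1.07, limma adjusted p = 0.00281). The integrin chains Itgb1, Itgam and Itgal, the amino acid transporter chain Slc3a2, the death receptor Tnfrsf25 and the checkpoint gene Vsir also rose in control mice. P4hb, a protein disulfide isomerase that galectin-9 binds at the cell surface, fell from 95.3 to 36.6 TPM (log2 -1.36, limma adjusted p = 0.00192). Bsg, which encodes basigin, fell from 62.0 to 36.0 TPM (log2 -0.77, limma adjusted p = 0.00631), and the checkpoint gene Lag3 also fell. Fcer1a, the IgE receptor alpha chain, fell from 852 to 352 TPM, but its protein is what the MAR1 sort used. Of the 14 control calls, 6 stood with each library left out in turn: Cd7, Cd44, Ptprc, Selplg, P4hb and Bsg. In deficient mice 1 of 12 did, Cd7. Without both first basophil libraries 7 rose and 3 fell in control mice and 2 rose and 1 fell in deficient mice.

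Branching enzymes build the polylactosamine and core structures that galectins prefer. Of 24 listed, 19 were tested, and 0 were called between basophil genotypes (median -0.134 beside -0.013 over all genes). With maturation in control mice 3 of the 19 rose (Gcnt1, Gcnt2 and B4galt3) and 1 fell (Mgat2), beside 12.6% higher and 10% lower of all genes, with a median of 0.117 beside 0.084. In deficient mice 3 rose (Gcnt1, Gcnt2 and B4galt5) and 0 fell, beside 6.79% and 4.11%, with a median of 0.158 beside 0.101. Gcnt2, the I-branching enzyme of polylactosamine, was at 1.41 and 1.36 TPM in control pre-Baso and 4.84 and 4.93 in control basophils, a log2 of 1.30 (limma, adjusted p = 0.00129). In deficient mice it rose by 0.99 (limma, adjusted p = 0.0101), which was lost without the first deficient pre-Baso or the first deficient basophil library. Mgat5, the enzyme whose branches bind galectin-3 most strongly, was at means of 0.829 to 1.38 TPM in the 4 groups and was not called. Of the 4 control calls, 1 stood with each library left out in turn, that of Gcnt2, and of the 3 deficient calls 0 did.

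Sialyl- and fucosyltransferases cap the same sugars, and alpha-2,6 sialic acid blocks most galectins. Of 15 genes, 11 were tested, and 0 were called between basophil genotypes (median 0.041 beside -0.013 over all genes). In control mice 3 of the 11 rose (St6gal1, Fut4 and St3gal5) and 0 fell, beside 12.6% and 10% of all genes, with a median of 0.247 beside 0.084. In deficient mice St6gal1, Fut4 and St6galnac4 rose and 0 fell, beside 6.79% and 4.11%, with a median of 0.524 beside 0.101. St6gal1, which adds alpha-2,6 sialic acid to N-glycans, was at 2.26 and 2.26 TPM in control pre-Baso and 6.76 and 5.69 in control basophils. It was at 1.62 and 2.29 TPM in deficient pre-Baso and 4.55 and 4.08 in deficient basophils. Its rise was 1.15 in control (limma, adjusted p = 0.00398) and 0.86 in deficient mice (limma, adjusted p = 0.0262), and the latter was lost without the first deficient pre-Baso or either deficient basophil library. With each library left out in turn, 2 of the 3 control calls (St6gal1 and Fut4) and 0 of the 3 deficient calls stood.

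Galectin-3, galectin-8 and galectin-9 take part in the response to damaged endosomes and lysosomes, for which 29 of 30 listed genes were tested. Between basophil genotypes 0 were called, with a median of -0.159 beside -0.013 over all genes. In control mice 6 of the 29 rose (Calcoco1, Chmp4b, Gabarap, Map1lc3a, Map1lc3b and Sqstm1) and 1 fell (Optn), beside 12.6% higher and 10% lower of all genes, with a median of 0.314 beside 0.084. In deficient mice 4 rose (Calcoco1, Gabarap, Map1lc3b and Sqstm1) and 0 fell, beside 6.79% and 4.11%, with a median of 0.277 beside 0.101. Sqstm1, the autophagy receptor p62, was at 58.9 and 74.2 TPM in control pre-Baso and 122 and 121 in control basophils, a log2 of 0.87 (limma, adjusted p = 0.00557). That call was lost when both first basophil libraries were left out. Gabarap, an autophagosome membrane protein, rose from a mean of 108 to 203 TPM (log2 0.90, limma adjusted p = 0.00279). Trim16, a partner of galectin-3 on damaged lysosomes, was at means of 0.839 to 0.925 TPM and was not called. Of the 7 control calls 3 stood with each library left out in turn (Sqstm1, Gabarap and Calcoco1), and of the 4 deficient calls 0 did. Without both first basophil libraries 2 rose and 1 fell in control mice, and 0 were called in deficient mice.

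**Figure D5:**
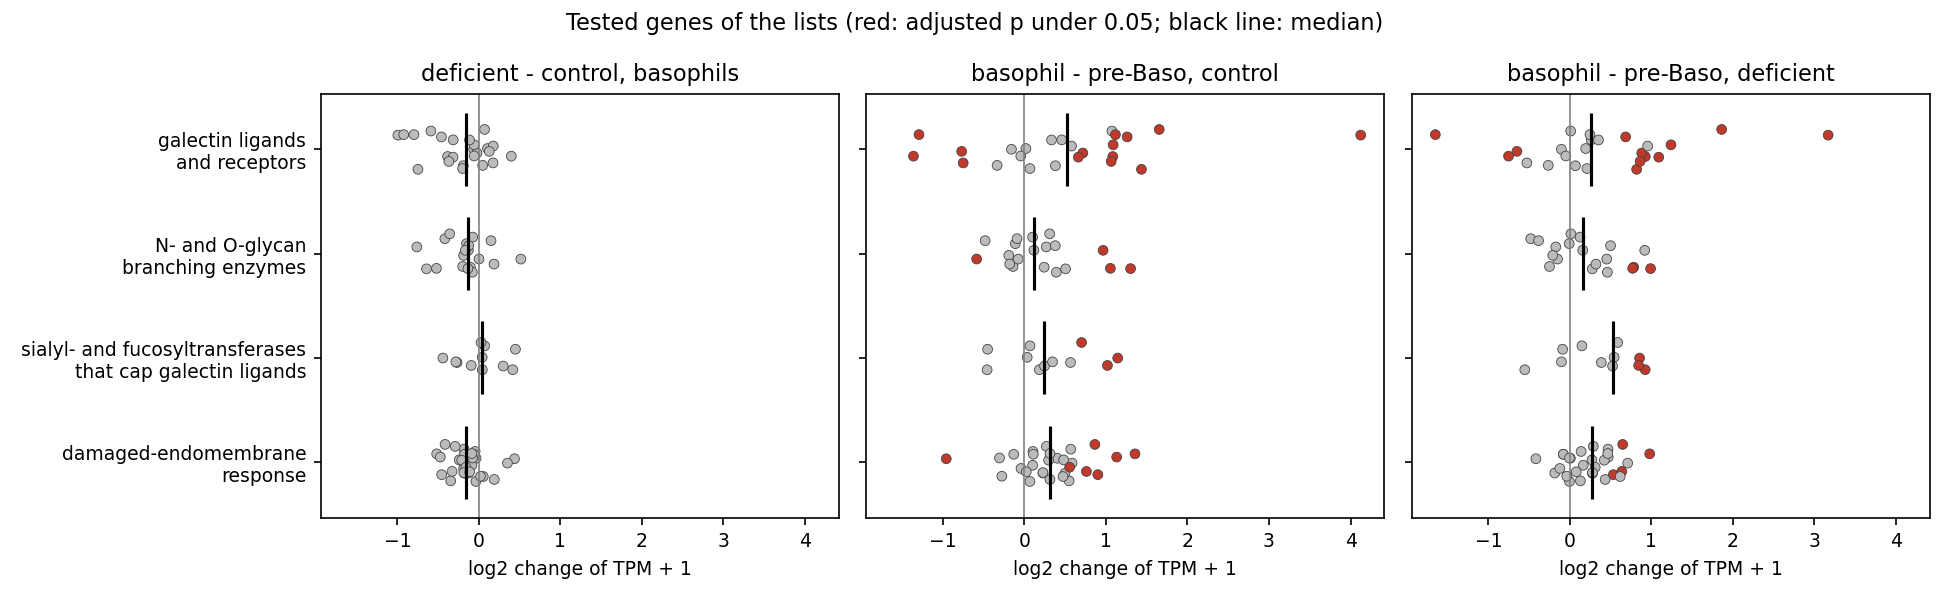
Log2 differences of TPM + 1 (x axis) of the tested genes of 4 lists (y axis) in 3 comparisons. Red points passed the threshold, and black lines are medians. No point is red between basophil genotypes, and the ligand list has its median at 0.518 in the control maturation comparison, with Cd7 at 4.13.

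Beside these maturation differences stood those of other cells' markers. Summed TPM of the 16 monocyte and macrophage genes was 154 to 249.2 in pre-Baso and 324.5 to 882.6 in basophils, and that of the 12 neutrophil genes was 800 to 1241 in pre-Baso and 1365 to 2551 in basophils. Granulocyte progenitor genes ran the other way, from 1216 to 2276 TPM in pre-Baso to 151.6 to 755.5 in basophils, and without Ctsg from 333.4 to 471.1 TPM to 61.2 to 163.3. The part of such cells in the list differences was not tested. For Lgals1, leaving out both first basophil libraries gave a control maturation difference of -1.10 (limma, adjusted p = 0.0209) and a deficient one of -1.01 (limma, adjusted p = 0.0676).

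The closest followers of the other genes were Dpy30 (Pearson r = 0.995), Etfb (0.992) and Crip1 (0.992) for Lgals1 and Aga (0.991), Eef1akmt2 (0.988) and Tm9sf1 (0.988) for Lgals9. For Lgals8 they were Syngr2 (0.995), Hgs (0.983) and Susd6 (0.978), and for Lgals3bp Slc25a28 (0.93), Phkg2 (0.916) and Sertad3 (0.892), each over the same 8 libraries and 4029 genes. Crip1, an abundant LIM-domain protein gene, averaged 1611 TPM in control and 1819 in deficient pre-Baso and 1012 in control and 1048 in deficient basophils, the same group order as Lgals1 apart from scale.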

How the data were processed

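RNA sequencing of 8 libraries in 4 groups of 2 was analysed. A SMARTER mRNA kit was used on total RNA, per the labels' protocols. The authors aligned reads with HISAT2 (mm10; processing notes of the submitters) and quantified Ensembl release 101 transcripts with StringTie 2.1.4, with no strand option, per the file headers. The deposited values are TPM, FPKM and per-base coverage, with no read counts. The 12511 genes that reached 1 TPM in 2 or more libraries were fitted on log2(TPM + 1) with limma 3.58.1 in R 4.3.3, with 1 mean per group, a variance trend and 4 residual degrees of freedom. Adjusted p-values are Benjamini-Hochberg values over all tested genes, called under 0.05. Nothing says that the libraries came from separate mice beyond the term biological duplicates, so p-values measure the spread between these libraries. Assigned bases are coverage times transcript length. The fit was tested on simulated data. Members and gene lists were chosen with earlier results of these data known. Named genes are the members, other galectins, the list genes called or with the smallest p, tested neighbours of Lgals3, the genes of most similar pattern, and the leading markers. Mgat5, Trim16, C1qa, C1qb, C1qc and Cd68 were named after their values were seen.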

Additional observations from a re-analysis of the deposited data

How the results depend on the processing

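The 5 genes were recomputed under 19 alternatives per comparison (18 for the difference between populations), 470 values in all, of which 441 kept direction and side of the threshold, or moved by less than 1 SE where there was no test. The alternatives that changed a call of a member are given beside it above. The log2 difference of Lgals3bp reversed in deficient maturation under median-ratio scaling (-0.11) and FPKM (-0.004), and was -0.505 to 0.526 over left-out libraries. Leaving out both first basophil libraries turned Lgals8 (0.166) and Lgals3bp (0.002) between basophil genotypes, and single libraries gave -0.36 to 0.184 for Lgals8. The difference between populations ranged from -0.158 to 0.293 for Lgals1 and from -0.184 to 0.361 for Lgals8, and the pre-Baso genotype difference of Lgalsl ran from -0.115 to 0.157 without single libraries. The cause was not tested.

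Counts of called genes moved more. Between pre-Baso genotypes (8 genes) they were 23 without a filter, 5 with protein-coding genes only, 3 with the compared groups alone, 13 on assigned bases, 20 without both first basophil libraries and 5 to 10 without single libraries. Between basophil genotypes (7 genes) they were 16 with a pseudocount of 0.1, 18 without a filter, 18 with protein-coding genes only, 4 with the compared groups alone, 40 on assigned bases, 26 without both first basophil libraries and 6 to 19 without single libraries. Control maturation gave 2832 genes, 1516 without a filter, 1639 without both first basophil libraries and 1397 to 2722 without single libraries. Deficient maturation gave 1363, 298 without a filter, 562 with the compared groups alone, 2439 on assigned bases, 336 without both first basophil libraries and, over single libraries left out, 20 to 1367, the 20 with the first deficient pre-Baso library removed. The difference between populations gave 0, 2 with a pseudocount of 0.1, 2 with protein-coding genes only, 4 on assigned bases and 0 to 3 without single libraries. Without a filter, the ligand and receptor list had 6 genes higher and 2 lower in control maturation and 1 and 0 in deficient maturation, and over single libraries left out 4 to 11 higher in control and 1 to 9 in deficient mice.

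A replicate block gave 8 and 8 calls between pre-Baso and basophil genotypes, 2778 in control and 1290 in deficient maturation, 0 for the difference, and changed no member's call. The labels tie same-numbered libraries by the number alone. Their deviations correlated at -0.054 to 0.202, and the highest value was that of the basophil groups, whose first libraries both had the high macrophage sums given above. With 2 libraries per group and no counts, the sampling error of Lgals8, Lgals4 and other genes at a few TPM is unknown.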
